A study of Mus musculus with 6 samples.

Results

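The genes described here are the aquaporins Aqp1, Aqp2, Aqp3, Aqp4, Aqp5, Aqp6, Aqp8 and Aqp11 and the vasopressin receptor Avpr2, some of which act in the return of water from the kidney to the body. They were taken by name, as every array probe whose annotated symbol is 1 of these 9 symbols. That gave 17 probes for 9 of the 19054 genes with a named probe. Aquaporins are membrane channels that let water, and for some members glycerol, cross the lipid bilayer along an osmotic gradient. In the collecting duct, vasopressin binds Avpr2 on the basolateral side of the principal cell, cAMP rises, protein kinase A phosphorylates Aqp2, and vesicles carrying Aqp2 fuse with the apical membrane. Water that enters through Aqp2 leaves the cell through Aqp3 and Aqp4 on the basolateral side, while Aqp1 carries the bulk of water uptake in the proximal tubule and the thin descending limb.

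RNA was measured on 1-colour Illumina MouseWG-6 BeadChips in whole kidneys at E18.5, late in the gestation of the mouse and before the kidney concentrates urine. The FoxD1;Dicer group (FoxD1GC;Dicerfl/fl) carried floxed Dicer alleles and an eGFP-Cre fusion expressed from the endogenous FoxD1 locus, and the control group was made of Cre-negative littermates, so the groups differ in the Cre allele at FoxD1 as well as in Dicer, the enzyme that completes miRNAs. Cre acts in the renal stroma and its descendants, and the study names podocytes as a further site of its expression. Each of 3 litters gave 1 control pool and 1 FoxD1;Dicer pool, and a pool held the kidneys of 2 embryos. The floxed line was kept on a C57BL/6J background and the Cre line on 129-Elite, and the sources used here do not say which Dicer alleles the controls carried. The comparison asks how water channel transcripts of the whole kidney differ when miRNAs are lost from the stroma.

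The arrays were alike in depth, with a median intensity of 100.3 to 107.6 and 35.7% to 37.7% of probes detected, which means a detection p under 0.01 against the negative-control beads. Of 12 genes that define the kidney, 9 had a probe and 8 were detected well enough to be tested. The Y-linked Eif2s3y read 8.50, 8.43 and 4.38 log2 units in the control pools in litter order and 8.21, 4.28 and 4.28 in the FoxD1;Dicer pools, so the pools of litter 2 differed in male tissue and those of litters 1 and 3 did not. All levels below are normalized log2 intensities in litter order, all changes are FoxD1;Dicer minus control with the moderated standard error (SE, n = 3 litters), and a gene was called at an adjusted p under 0.05 over all 16899 probes tested. Levels of different probes are not comparable with each other.

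Aqp2 had the largest change of the 7 genes tested. Its 2 probes gave 3.07-fold and 2.95-fold lower levels in the FoxD1;Dicer kidneys, Aqp11 was 1.58-fold lower and Aqp4 1.41-fold lower, and Aqp5 was 1.88-fold higher, over control pools of which 1 of 3 detected it. Aqp1 lay below control in every litter but its brightest probe missed the threshold. Aqp3, the basolateral partner of Aqp2, and Avpr2 were not called, and Aqp6 and Aqp8 were not detected on any of the 6 arrays. Since the whole kidney was profiled, fewer cells of a type and less RNA per cell cannot be told apart in any of these values. Of the 9 members, 7 had a probe that passed the detection filter. The test called 4 of these, 3 lower and 1 higher, where over all 9921 genes tested 5.56% were called, 3.15% lower and 2.41% higher. Aqp5 entered the test mainly through the FoxD1;Dicer arrays, so its call adds nothing to that count. By probe, 6 of 10 tested were called against 4.87% of all probes. The 6 include the Aqp5 probe, to which the same limit applies, and 2 probes of Aqp2, which count that gene more than once. The 3 FoxD1;Dicer pools all lay below the 3 control pools for 5 members and all above for 1, and the same held for 12.1% and 13.8% of all genes. The median change was -0.47 over the tested members and 0.01 over all genes. Only Aqp2 remained called when litter 2 was left out, a setting in which 44 genes of the whole array were called in place of 552.

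**Figure D1:**
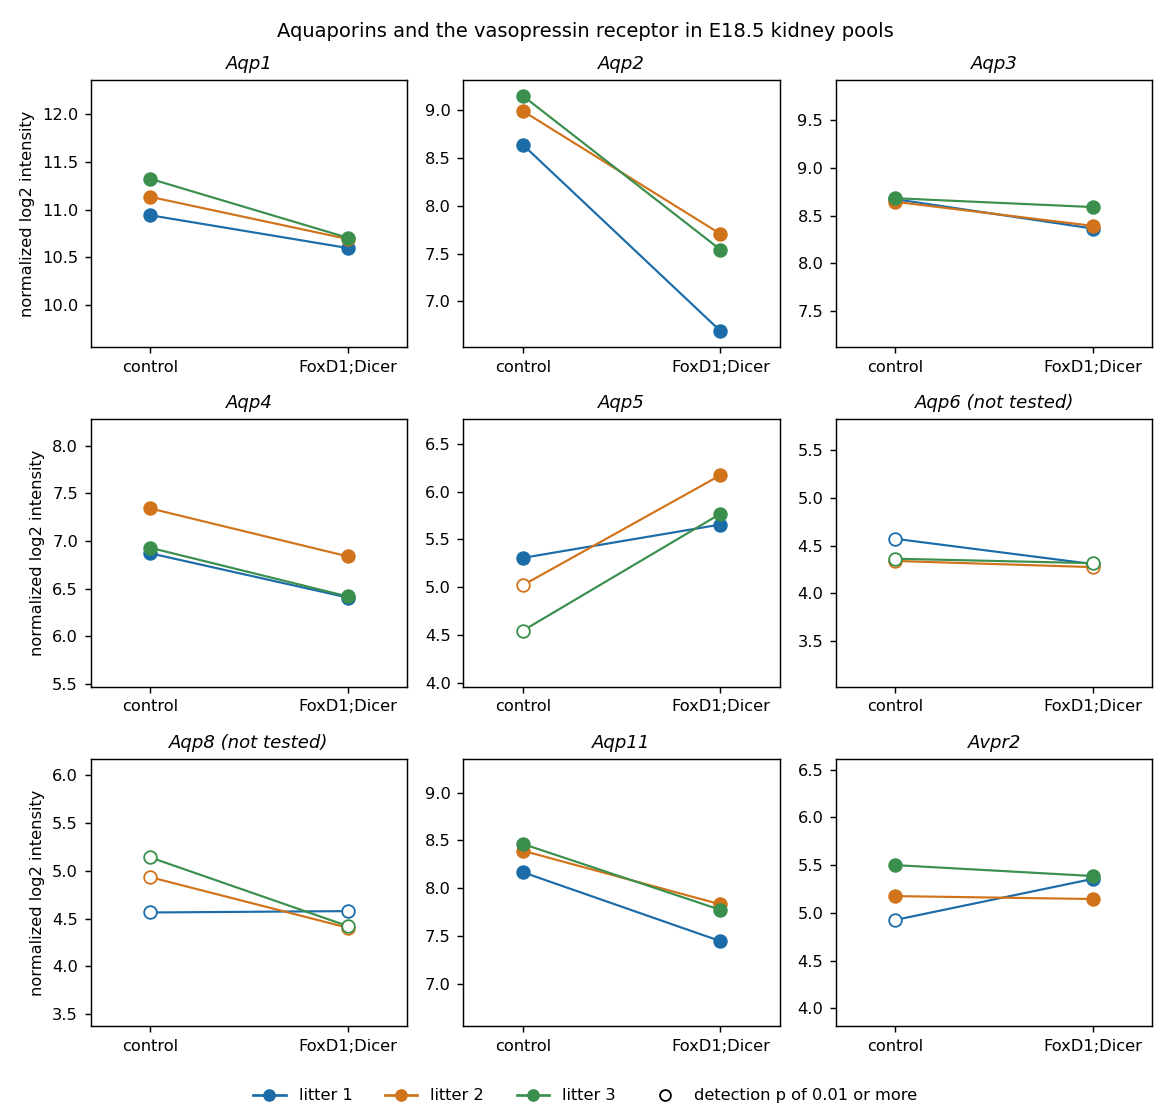
Normalized log2 intensity of the brightest probe of each of the 9 genes in control and FoxD1;Dicer pools at E18.5, with a line joining the pools of 1 litter and open points where the detection p was 0.01 or more. All panels span the same number of log2 units, and the steepest lines are those of Aqp2, which read 8.64 to 9.15 in control and 6.69 to 7.71 in FoxD1;Dicer pools.

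Aqp2 is the apical, vasopressin-regulated channel of the principal cell, and its loss of function causes nephrogenic diabetes insipidus. Its brightest probe read 8.64, 8.99 and 9.15 in the control pools and 6.69, 7.71 and 7.54 in the FoxD1;Dicer pools. Every FoxD1;Dicer pool lay below every control pool, the pool of litter 1 lowest, and the highest of them was still almost a log2 unit under the lowest control. The change was -1.62 ± 0.14 with a 95% interval of -1.96 to -1.27 (adjusted p = 0.0029). On the scanner's own scale, before any correction, the intensities were 484.1, 555.3 and 695.3 in control and 182.1, 322.1 and 248 in FoxD1;Dicer kidneys. The second probe read 7.97, 7.93 and 8.03 against 6.16, 6.69 and 6.39, a change of -1.56 ± 0.14 (adjusted p = 0.0027), and its groups did not overlap either. The estimates of the 2 probes differed by less than their SE. Litter by litter the first probe changed by -1.95, -1.29 and -1.61, so the fall was smallest in litter 2, the litter whose pools differed in male tissue. Whether sex had a part in the size of the fall was not tested. Leaving out a litter moved the estimate between -1.78 and -1.45 and kept the call each time.

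The Aqp2 gene lies on chromosome 15 directly beside Aqp5 and Aqp6, and the 3 are consecutive protein-coding genes in the RefSeq table of GRCm38.p6. Aqp2 was called lower, Aqp5 was called higher through a probe that 1 of 3 control arrays detected, and Aqp6 was not detected. The 250 bases before the annotated start of Aqp2 and of Aqp5 are shown because the calls of these neighbours had opposite signs. The search covered the cAMP response element half-site TGACG, the GATA motif AGATAA and the AP-1 motif TGANTCA on both strands, and capitals mark the matches, which are written as the gene's own strand has them. The Aqp2 window is chr15:99578806-99579055 and the Aqp5 window chr15:99590778-99591027, both on the plus strand of GRCm38.p6.
Aqp2: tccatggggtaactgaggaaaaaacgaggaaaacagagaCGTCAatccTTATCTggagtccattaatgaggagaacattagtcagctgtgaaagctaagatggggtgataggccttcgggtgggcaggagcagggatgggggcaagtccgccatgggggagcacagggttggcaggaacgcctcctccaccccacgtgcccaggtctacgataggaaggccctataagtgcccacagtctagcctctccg
Aqp5: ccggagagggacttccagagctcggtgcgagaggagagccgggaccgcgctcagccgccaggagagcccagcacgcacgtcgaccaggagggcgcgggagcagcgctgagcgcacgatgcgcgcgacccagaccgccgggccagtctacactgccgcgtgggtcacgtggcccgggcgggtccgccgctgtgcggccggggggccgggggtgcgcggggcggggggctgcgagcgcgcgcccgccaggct
In Aqp2 the half-site begins 211 bases before the start, read as CGTCA because the match is on the reverse strand, and the GATA motif begins 202 bases before it, read as TTATCT. The letters of the half-site were in 17.8% of the 32851 promoter windows of this length, those of the GATA motif in 9.99% and those of AP-1 in 6.75%. Promoters of 1 chromosome were left out of the search and of these shares, and Aqp4 was not searched. Of the 8 members searched, Aqp2 was the only one with a match to any of the 3 motifs. A match of letters is not evidence of binding, and no binding was measured here.

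Aqp3, which carries water and glycerol across the basolateral membrane of the same cells, read 8.67, 8.64 and 8.68 in control and 8.36, 8.39 and 8.59 in FoxD1;Dicer pools. The pools did not overlap after normalization, although the raw intensity of the FoxD1;Dicer pool of litter 2, at 467.1, was above that of its control, at 454.7. The change was -0.22 ± 0.11 with an interval of -0.47 to 0.04 (adjusted p = 0.32), so a fall of the size seen in Aqp2 lies outside the interval. Within litters, the change of Aqp2 less that of Aqp3 was -1.65, -1.04 and -1.52 log2 units, a mean difference of -1.40 ± 0.32 (SD, n = 3). A two-sided exact permutation test gave p = 0.25, which is the smallest that 3 litters allow. This and 5 other differences between changes were chosen after the data were seen.

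Aqp4, the other basolateral channel of the collecting duct and the main water channel of brain astrocytes, read 6.87, 7.34 and 6.93 in control and 6.41, 6.84 and 6.42 in FoxD1;Dicer pools. The groups were separated by a narrow margin, since litter 2 was higher than the other litters in both. The changes within litters were nearly equal, at -0.46, -0.50 and -0.51, and the fitted change was -0.49 ± 0.10 with an interval of -0.73 to -0.25 (adjusted p = 0.044). That call rested on the full design. Without litter 1, 2 or 3 the adjusted p was 0.12, 0.27 and 0.087, and without litter in the model it was 0.16. A second Aqp4 probe was not detected on any array and gave no test.

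Avpr2, the Gs-coupled receptor through which vasopressin acts on the principal cell, was close to the background. Its tested probe read 4.93, 5.18 and 5.50 in control and 5.36, 5.14 and 5.39 in FoxD1;Dicer pools, with detection on 2 of 3 control and 3 of 3 FoxD1;Dicer arrays. The groups overlapped, and the change of 0.10 ± 0.14 had an interval of -0.23 to 0.42 (adjusted p = 0.75). Its sign rested on litter 1, without which the change was -0.072. The interval includes small differences in either direction and not one as large as that of Aqp2, on a scale whose offset shrinks changes this near to background. The tested probe is annotated to a cDNA clone. The second probe, annotated to the RefSeq transcript, was undetected throughout and gave no test, so these values rest on the first probe alone.

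**Figure D2:**
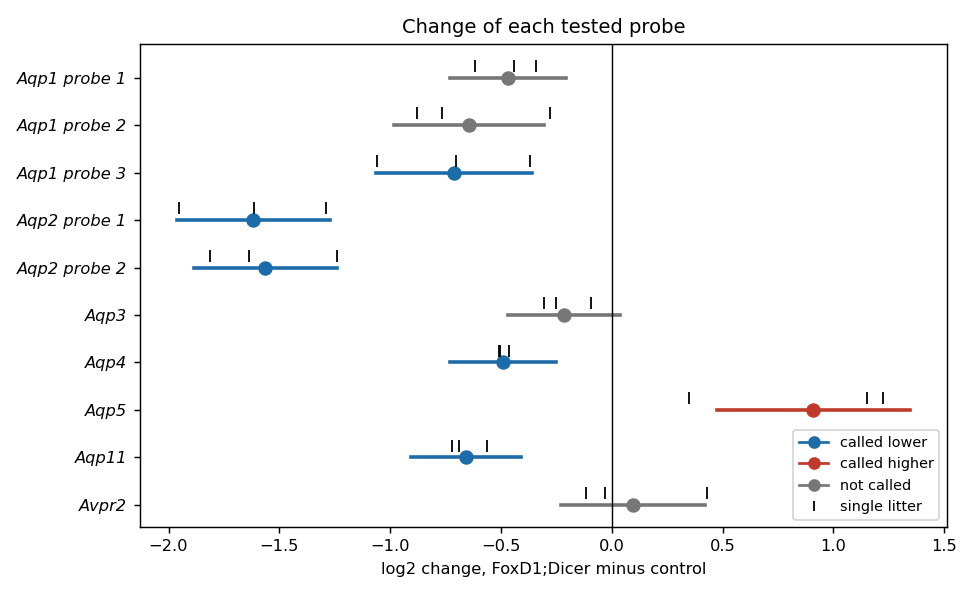
Log2 change, FoxD1;Dicer minus control, of each of the 10 tested probes of the group, with the 95% interval of the fit as a bar and the 3 litters as ticks. The Aqp2 probes sit at -1.62 and -1.56, the Aqp1, Aqp4 and Aqp11 probes lie between -0.71 and -0.47, and Aqp5 is the only one above 0 that was called.

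The 3 tested probes of Aqp1, the constitutive channel of the proximal tubule, thin descending limb and descending vasa recta, all pointed down. The brightest read 10.94, 11.14 and 11.32 in control and 10.60, 10.69 and 10.71 in FoxD1;Dicer pools. The groups did not overlap, and control pools spread more than FoxD1;Dicer pools. The change was -0.47 ± 0.11, or 1.38-fold, with an interval of -0.73 to -0.21 and an adjusted p of 0.067, so it was not called. The second probe gave -0.64 ± 0.14 (adjusted p = 0.056) and the third -0.71 ± 0.15 (adjusted p = 0.047). For the third probe the control pools read 8.28, 8.71 and 9.03 and the FoxD1;Dicer pools 7.91, 8.01 and 7.97, again without overlap. The probes thus fell on both sides of the threshold, and their mean was called, at -0.61.

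Aqp11 is an unusual aquaporin of the endoplasmic reticulum of proximal tubule cells, and mice that lack it develop cystic kidneys. It read 8.17, 8.39 and 8.46 in control and 7.44, 7.83 and 7.77 in FoxD1;Dicer pools. All FoxD1;Dicer pools lay below all control pools, with litter 1 lowest in each group. The change was -0.66 ± 0.10 with an interval of -0.91 to -0.41 (adjusted p = 0.018), and the litters gave -0.72, -0.56 and -0.69. Without litter 1 or litter 2 the change was -0.63 and -0.71 but the adjusted p rose to 0.068 and 0.14. A dim second probe was detected on 2 control arrays and on 0 FoxD1;Dicer arrays and was not tested.

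Most listed proximal tubule genes were lower, as Aqp1 and Aqp11 were. Of 16 tested genes of that segment and the thin limb, 12 were called lower and 0 higher, with a median change of -0.71. Slc5a2, 1 of the 12, was detected on 3 control and 0 FoxD1;Dicer arrays and passed the filter through the control group alone. Among the other 15 genes, 11 were called lower, with a median of -0.71. Slc7a9, a cystine transporter subunit picked after its values were seen, went the other way in all 3 litters, with a change of 0.52 ± 0.11 (adjusted p = 0.057). On the log2 scale the endocytic receptor Lrp2 changed by -1.47, the inositol oxygenase Miox changed by -2.59, and the androgen-regulated Kap and the organic anion transporter Slc22a6 changed by -2.86 and -1.10. Kap was detected on 3 control arrays and 1 FoxD1;Dicer array, and its change was -1.15 on the authors' log2 values. Without litter 2, 3 of the 12 remained called, Lrp2, Miox and Kap. The summed intensity of the list ranged from 27695.9 to 39507.8 in control and from 17448.1 to 23087.3 in FoxD1;Dicer pools, without overlap. Within litters, the change of Aqp1 was above the mean of these genes by 0.55, 0.45 and 0.53 log2 units, a mean of 0.51 ± 0.05 (SD, n = 3), and that of Aqp11 by 0.17, 0.33 and 0.45, a mean of 0.32 ± 0.14. Each had an exact permutation p of 0.25, the smallest possible, and the mean over these genes includes Slc5a2 and Kap, whose lower values are limited by background. The part of the segment's lower signal in the changes of Aqp1 and Aqp11 was not tested.

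Aqp5, a channel of salivary, lacrimal and lung epithelia that has also been described in intercalated cells, was the only member to rise. It read 5.31, 5.02 and 4.54 in control and 5.66, 6.17 and 5.77 in FoxD1;Dicer pools. The groups did not overlap, although the lowest FoxD1;Dicer pool was only a little above the highest control pool, which is also from litter 1. The probe was detected on 1 of 3 control and 3 of 3 FoxD1;Dicer arrays, with intensities of 106.2 to 123.5 and 129 to 165.4. The change was 0.91 ± 0.18 with an interval of 0.47 to 1.34 (adjusted p = 0.042), and the litters gave 0.35, 1.15 and 1.23. Without litter 2 it was 0.79 (adjusted p = 0.29) and without litter 3 it was 0.75 (adjusted p = 0.070). Of 11 marker genes of salivary gland, lung and skin, 2 were tested and neither was called, Krt10 with a change of 0.04 and Lor with 0.03. Both are skin genes, so no salivary or lung marker was tested, and 8 of the 11 were undetected on every array.

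Aqp6, a channel of intracellular vesicles in intercalated cells, and Aqp8, which is found in liver, pancreas and colon, gave no level. Both probes of Aqp6 stayed between 93.8 and 106.7 intensity units and both probes of Aqp8 between 97.3 and 119.9. No array detected any of them, so the values are bounded by background and no fold is given. Among other aquaporins, Aqp7, the glycerol channel of the proximal straight tubule, was the only one of 4 to be tested, and its change of -0.29 ± 0.13 was not called (adjusted p = 0.29).

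Of 18 tested genes of receptors, cAMP synthesis and protein kinase A signalling, 1 rose and 1 fell, and the median change was 0.01, as over all genes. The gene that rose was Avpr1a, the V1a receptor of vascular smooth muscle and other cells that signals through calcium. It read 7.16, 7.09 and 7.45 in control and 8.41, 8.22 and 8.17 in FoxD1;Dicer pools, without overlap, a change of 1.04 ± 0.13 (adjusted p = 0.0086). Akap12, a scaffold that anchors protein kinase A, changed by -0.60 ± 0.11 (adjusted p = 0.032). Neither call held without litter 2, where the adjusted p was 0.12 and 0.21, and that of Akap12 was also lost without litter 1 (0.064) and litter 3 (0.072). Of 18 tested genes that move Aqp2 vesicles, such as Vamp2, Rab11a and Myo5b, the test called 0 in limma, 2 had an unadjusted p under 0.05, and the median change was 0.05.

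Principal cell genes other than the aquaporins had a median change of 0.01. Of 21 tested, 4 rose and 1 fell, and 0 of these 5 remained called without litter 2. Krt19, a simple-epithelium keratin that urothelium also makes, rose by 1.55 ± 0.16 (adjusted p = 0.0041), the apical mucin Muc1 by 0.99 ± 0.13 (adjusted p = 0.010) and Krt8 by 0.59 ± 0.11 (adjusted p = 0.035). Elf5, a transcription factor of principal cells, changed by -0.55 ± 0.10 (adjusted p = 0.034). Fxyd4, a regulator of the sodium pump, was the fourth to rise, by 0.53. The epithelial sodium channel subunits Scnn1a, Scnn1b and Scnn1g, which work in the same cells, changed by -0.33, -0.10 and -0.15 and were not called. Gata2 at -0.25, Gata3 at -0.27 and the aldosterone-guarding enzyme Hsd11b2 at -0.36 were not called either. These last 7 genes were picked after their values were seen. Of the 21, 10 had a negative change and 11 a positive one, and the uncalled genes named here are all among the negative. The summed intensity of the list was 23781.3 to 26670.2 in control and 24996.3 to 32207.2 in FoxD1;Dicer pools. The probe of Cdh16, a gene also listed as defining the kidney, gave 5352.3 to 6400.3 and 5543.6 to 7803.3 of these sums.

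Aqp2 changed by -1.42 ± 0.43 (SD, n = 3) log2 units relative to the mean of the 3 sodium channel subunits, and by -1.92, -1.15 and -1.20 in the single litters. Relative to the mean of all 21 principal cell genes it changed by -2.10, -1.44 and -1.61, a mean of -1.72 ± 0.34, and Aqp4 by -0.61, -0.66 and -0.51, a mean of -0.59 ± 0.08. Leaving out a litter moved the 3 means to between -1.56 and -1.18, -1.86 and -1.53, and -0.64 and -0.56. All litters had the same sign in each of these comparisons, and each had the smallest exact permutation p that 3 litters allow, 0.25. The reference mean over the 21 genes includes 4 called higher, Krt19 at 1.55 among them, and 1 called lower. These genes are not confined to principal cells. Cdh16 is also on the list of genes that define the kidney, and Kcnj1 on that of salt transport. The median change of the 21 was 0.01.

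**Figure D3:**
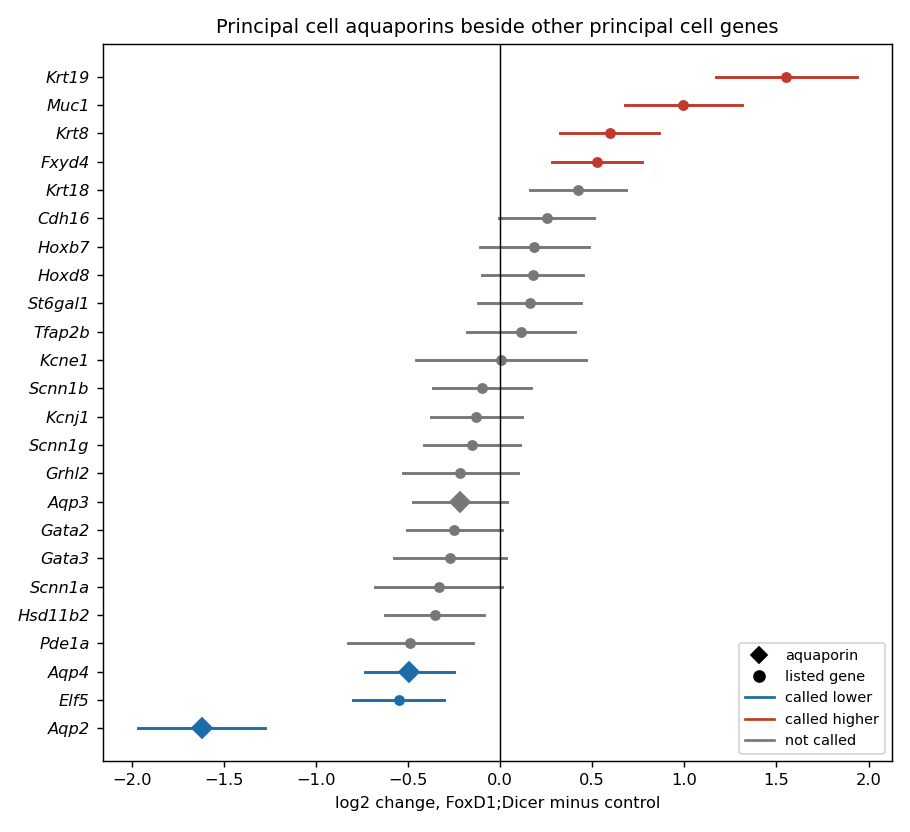
Log2 change, FoxD1;Dicer minus control, with the 95% interval of the fit, for Aqp2, Aqp3 and Aqp4 (diamonds) and 21 other tested principal cell genes (circles), in order of change. Aqp2 at -1.62 lies apart from the sodium channel subunits, at -0.33 to -0.10, and Krt19 stands at the other end with 1.55.

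Signal from other cells moved with genotype in part. Of 12 tested urothelium genes, 4 rose and 0 fell, with a median of 0.15, and litter 1 stood apart with a median of 1.21 against 0.08 and 0.14. Krt20, a marker of the outermost urothelial cells, was detected on 0 control and 3 FoxD1;Dicer arrays, so it entered the test through the FoxD1;Dicer group alone, and it was at least 3.24-fold higher there (adjusted p = 0.0033). Among the other 11 genes, 3 rose, the stratified epithelium gene Sprr1a by 1.50, the uroplakin Upk3a by 0.97 and the transcription factor Foxa1 by 0.91, and their median was 0.10. In all, 5 of the 12 had a negative change. Upk2 at -0.45, Upk1b at -0.27, Upk1a at -0.10, Trp63 at -0.29 and Krt7 at -0.03 were not called, and the first 4 of these were picked after their values were seen. Without litter 2, 0 of the 4 called genes remained called. The list's summed intensity was 3488.1 to 4040 in control and 3642.7 to 4602.5 in FoxD1;Dicer pools, and Krt5 and Grhl3 were not tested. Aqp3 is also known from urothelium, and whether urothelium gave any of its signal here was not tested. Among 3 erythroid, 12 endothelial, 4 skeletal muscle and 1 adipose gene tested, limma called 0, and 2, both endothelial, had an unadjusted p under 0.05. Hba-a1 changed by -0.14, Egfl7 by 0.01, Mylpf by 0.08 and Pck1 by -0.17. In the liver and adrenal list, 1 of 4 tested genes was called, the transthyretin gene Ttr at -1.29 (adjusted p = 0.0063, and 0.087 without litter 2). Of the 26 genes called from all of these lists, 17, 3 and 20 remained called without litters 1, 2 and 3. The 3 that remained each time were Lrp2, Miox and Kap.

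The genes whose 6 values ran closest to each called member were found by the root mean square difference of values centred on their means, over 9920 genes. Nearest to Aqp2 were the defensin Defb1, Lrp2, Mfsd4b5, F13b and Ugt1a5, at 0.14 to 0.22 log2 units, with changes of -1.77 to -1.44. Nearest to Aqp11 were the amino acid transporter Slc7a12, Mcrip2, the fatty acid transporter Slc27a2, the phosphate transporter Slc34a1 and Aspdh, at 0.05 to 0.07 log2 units. Nearest to Aqp4 were Lhx1, Mindy2, Pld1, Aadat and Mfsd2a, at 0.09 to 0.12, and nearest to Aqp5 were Gsdmd, Klhl6, Vcam1, Car3 and Tafa2, at 0.13 to 0.21. The lists for the 4 members share no gene. Because the measure includes the change between the groups, genes near a member have changes like its own. Members with unlike changes therefore tend to have separate lists. Likeness over 6 values is a description of these arrays and was not tested.

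The size of the changes depended on the scale. On the authors' own log2 values, Aqp2 changed by -1.09, Aqp11 by -0.44, Aqp4 by -0.22 and Aqp5 by 0.21. On that scale Aqp2 and Aqp11 were called and Aqp4 and Aqp5 were not. With no background correction Aqp2 changed by -1.22 and Aqp5 by 0.31. Aqp1, whose probes are far above background, changed by -0.47 and -0.45 under the same settings.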

How the data were processed

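Kidneys of E18.5 embryos were pooled by litter and genotype, and labels gave each sample its genotype and litter. Per the file headers, the deposited table holds a linear signal intensity, neither background-corrected nor normalized, with a detection p-value beside each signal. The authors' second table holds log2 values made with lumi, whose steps are not given in the sources used here, and served as an alternative. Of 45281 rows, 8 damaged ones were left out. Symbols came from the platform annotation, which gave 34877 of 45273 probes 1 symbol, 18 several and 10378 none.

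Intensities were corrected and quantile normalized with neqc (offset 16) in limma 3.58.1 under R 4.3.3. Probes detected at p under 0.01 on at least 3 of 6 arrays were fitted with lmFit and eBayes for genotype, with litter fixed as a block in the way the study's methods have it, and adjusted by Benjamini-Hochberg. A gene is read through its brightest tested probe. Same-litter pools deviated together (correlations 0.19, 0.18 and 0.14, all others below 0), as their labels imply. Each group was centred on its own mean, so negative correlations across litters partly follow from the centring. The members, the gene lists and the rule for named genes were chosen with earlier results of these data known. Named were all members with every probe, up to 4 called genes per list with the smallest p, the gene with the highest mean signal in each list of other cells, and the 5 genes most like each called member. For a probe undetected throughout 1 group, "at least" compares the other group with the higher, per array, of the probe's own value and the lowest value among detected probes. The fit was tested on simulated data. Precision is limited by how few arrays there are: the SE had a median of 0.12 across the probes tested. Alternatives covered the block, normalization, background, filter, trend, offset, probe choice, the study's B-statistic threshold and each litter. Promoters are from RefSeq, those of 1 chromosome were left out, and 8 members, all but Aqp4, had a window that was searched.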

Additional observations from a re-analysis of the deposited data

How the results depend on the processing

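Aqp2 kept its direction and call in all 13 alternatives, with changes of -1.78 to -1.09 and adjusted p up to 0.031, and Aqp3 was called in 0 of 13. Aqp1 was called with no background correction (-0.45), the authors' log2 values (-0.47), an intensity trend in eBayes (-0.47), a neqc offset of 50 (-0.46) and the mean of its probes (-0.61). Aqp4 was not called without the litter as a replicate block (-0.49, the only member call that the block changed), with median scaling (-0.48), on the authors' log2 values (-0.22), with no filter on dim probes (-0.49), by a B-statistic above 0 (-0.49), or without any 1 litter (-0.51 to -0.48). Aqp5 was not called with no background correction (0.31), on the authors' log2 values (0.21), with no filter (0.91) or by the B-statistic (0.91), and leaving out a litter gave 0.75 to 1.19. Aqp11 ranged from -0.71 to -0.63 and Avpr2 from -0.072 (without replicate 1, a change of sign) to 0.20 when a litter was left out. The 4 member genes called became 2 with no filter, 2 by the B-statistic and 1 to 2 without a litter. Over all genes, 552 calls became 265 with no filter, 865 with the trend, 343 by the B-statistic and 44 to 537 without a litter, 44 being without litter 2, and 528 with no replicate block. Aqp5 and Avpr2 have no value where detection on all 6 arrays was required. Where a litter was left out, fewer samples stood behind each test, equally so for each of the 3 litters. The cause of the changes between settings was not tested, those without a litter included.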

Other observations

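Of 11 tested intercalated cell genes, the acid-secreting neighbours of the principal cell, 0 rose and 1 fell, Atp6v1c2, a proton pump subunit, by 0.61 (adjusted p = 0.022), with a median of -0.23 over the list. The call was lost without litter 1 (adjusted p = 0.063), without litter 2 (adjusted p = 0.20) and without litter in the model (adjusted p = 0.063). Among the uncalled genes of this list, 3 had an unadjusted p under 0.05 in limma, Car2 at -0.61, Car12 at -0.35 and Foxi1 at 0.50. In all, 9 of the 11 had a negative change and 2 a positive one. Of 8 tested genes of salt transport and osmolyte handling in the concentrating medulla, 8 had a negative change and 1 was called, the betaine transporter Slc6a12. It was detected on 3 control and 0 FoxD1;Dicer arrays, so it passed the filter through the control group alone. It was at least 1.95-fold lower in the FoxD1;Dicer pools (adjusted p = 0.016). It was not called without litter 2 (adjusted p = 0.12), on the authors' log2 values (-0.28, adjusted p = 0.072) or with no filter on dim probes (adjusted p = 0.089). Among the other 7 genes, 0 were called by limma, 1 had an unadjusted p under 0.05, and the median was -0.14, against 0.01 over all genes.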
